A study of Mus musculus with 10 samples.

Results

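The 9 genes described here control how triacylglycerol is stored in and released from lipid droplets: G0s2, Pnpla2, Abhd5, Lipe, Mgll, Plin2, Plin4, Dgat1 and Dgat2. Every probe set whose annotation gave 1 of these symbols and no other was taken, which gave 18 of the 45037 probe sets tested, for 9 of 18193 genes. G0s2, Plin2 and Plin4 had 1 probe set each, Pnpla2, Lipe, Dgat1 and Dgat2 had 2 each, Abhd5 had 3 and Mgll had 4. Where a gene had several, the brightest over all arrays is described first.

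Gene expression was measured in hearts of SV129 male mice, 32 weeks old, with 1 Affymetrix array per heart RNA sample. Mice lacking protein kinase C zeta (PKCz -/-, here KO) and their wild-type littermates (WT) received angiotensin II (AngII), a peptide hormone used to induce cardiac hypertrophy, or the PBS vehicle. AngII was delivered under the skin by osmotic minipump at 432 µg/kg/day over 14 days. The 4 groups were WT PBS (2 arrays), WT AngII (3 arrays), KO PBS (3 arrays) and KO AngII (2 arrays), and arrays are named by group and by the number in their title. One label calls the control mice untreated while the design text names PBS. The labels do not say whether arrays of a group came from separate animals, so a p-value here reflects only how far samples of a group spread. Values are log2 RMA expression, on which a difference of 1 is a doubling.

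Triacylglycerol in the heart is a reserve of fatty acids, which cardiomyocytes burn for most of their energy. It is broken down in steps: adipose triglyceride lipase (ATGL, gene Pnpla2) removes the first fatty acid, hormone-sensitive lipase (gene Lipe) the next, and monoglyceride lipase (gene Mgll) the last. ATGL is activated by CGI-58 (gene Abhd5) and inhibited by the G0/G1 switch protein 2 (gene G0s2), while perilipins such as Plin2 and Plin4 coat the droplet and the enzymes Dgat1 and Dgat2 make the triacylglycerol.

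Some facts of the whole series bear on these genes. Prkcz, the targeted gene, read between 6.23 and 6.45 on the 5 WT arrays and between 5.70 and 5.87 on the 5 KO arrays, so the arrays matched their labels (KO minus WT averaged over treatment −0.53 ± 0.09 SE, adjusted p = 0.126 by limma). Whether its probes lie inside the deleted part of Prkcz was not analysed here. Control transcripts added to the RNA averaged 12.86 to 13.33 over 24 probe sets on 7 arrays, but only 6.90 to 7.08 on both KO AngII arrays and on KO PBS 4. On those 3 arrays the 3′ minus 5′ signal of Actb, a sign of RNA quality or labelling, was 0.74 to 0.83, against 0.92 to 1.70 on the others. Both KO AngII arrays were thus of low spike-in signal and all WT arrays of high signal, and genotype under AngII could be separated from this signal only through KO PBS 4. Cardiomyocyte markers were uniformly high, with means of 13.92 to 14.06 over 10 genes. WT AngII 2 stood apart, with a mean of 11.88 over 6 fibroblast markers against 9.39 to 10.35 on the other arrays, and of 9.88 over 6 macrophage markers against 8.26 to 8.95.

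Fat tissue on the heart also expresses the lipolysis genes. Of 11 adipocyte markers 9 were measured, and Adipoq, Lep, Cidec, Acvr1c and Ucp1 lay below the median of all probe sets on every array. The mean of the 9 markers ran from 6.36 to 6.46 in WT PBS, 6.15 to 6.48 in WT AngII, 6.23 to 6.61 in KO PBS and 6.24 to 6.46 in KO AngII. These ranges overlap in all 4 groups, but the mean joins markers of both signs. AngII minus PBS was above 0 for 4 of 9 in WT and for 5 of 9 in KO. For Adipoq it was −0.38 ± 0.27 SE in WT and −0.35 ± 0.27 SE in KO. Car3 gave −0.69 ± 0.54 SE and −0.59 ± 0.54 SE, and Acvr1c gave 0.29 ± 0.11 SE and 0.17 ± 0.11 SE. KO minus WT was above 0 for 7 of 9 under PBS (median 0.09) and for 7 of 9 under AngII (median 0.07). Under AngII it was 0.28 ± 0.09 SE for Lep and −0.27 ± 0.22 SE for Thrsp. The part of fat tissue in the differences of the 9 genes was not tested. In RNA of a whole tissue, fewer cells of a type and less RNA per cell cannot be told apart.

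G0s2, the inhibitor of ATGL, separated the genotypes under AngII. It read 9.46 and 9.35 in WT PBS (9.41 ± 0.08 SD, n = 2), 8.69, 8.90 and 8.82 in WT AngII (8.80 ± 0.11 SD, n = 3), 9.97, 9.33 and 9.39 in KO PBS (9.56 ± 0.35 SD, n = 3), and 9.78 and 10.03 in KO AngII (9.90 ± 0.18 SD, n = 2). The 3 WT AngII arrays were the lowest of the 10, below every PBS array, and both KO AngII arrays lay above every WT array. In the order of group means, WT AngII was separate from the rest, WT PBS and KO PBS overlapped, and KO PBS and KO AngII overlapped because KO PBS 2 lay between the 2 KO AngII arrays.

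The promoter of G0s2 is shown because this gene carried the largest genotype difference among the 9. The 250 bases before the RefSeq start site (GRCm38.p6, chr1:193273189-193273438, minus strand, 67.2% G or C) read 5′ to 3′, with no capitals because none of the motifs searched lies in it:
G0s2: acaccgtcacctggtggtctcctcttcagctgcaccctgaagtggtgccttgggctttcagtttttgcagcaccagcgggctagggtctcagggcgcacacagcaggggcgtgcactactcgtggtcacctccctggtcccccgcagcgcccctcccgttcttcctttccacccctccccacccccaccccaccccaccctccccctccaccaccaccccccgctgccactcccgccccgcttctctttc

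The motifs searched on both strands were AGGTCA, the hexamer bound by nuclear receptors, a pair of AGGTCA in the same direction 1 base apart (the PPAR response element, DR1), GTAAACA, bound by FoxO factors, and the E-box CACGTG, a palindrome counted as 1 site. The DR1 contains AGGTCA, so each DR1 is also a hit for that hexamer. RefSeq windows of 300 bases (250 before and 50 after the start) were at hand for 7 of the 9 genes, in 9 windows. Over 32851 such windows of the mouse annotation, AGGTCA was in 16.3%, the DR1 in 0.0396%, GTAAACA in 3.65% and CACGTG in 7.15%. Among the members AGGTCA was found in Abhd5 and Plin2, GTAAACA in Lipe and Mgll, CACGTG in Lipe, Mgll and Plin2, and the DR1 in 0. A match is a description of the letters and not a site of binding.

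**Figure D1:**
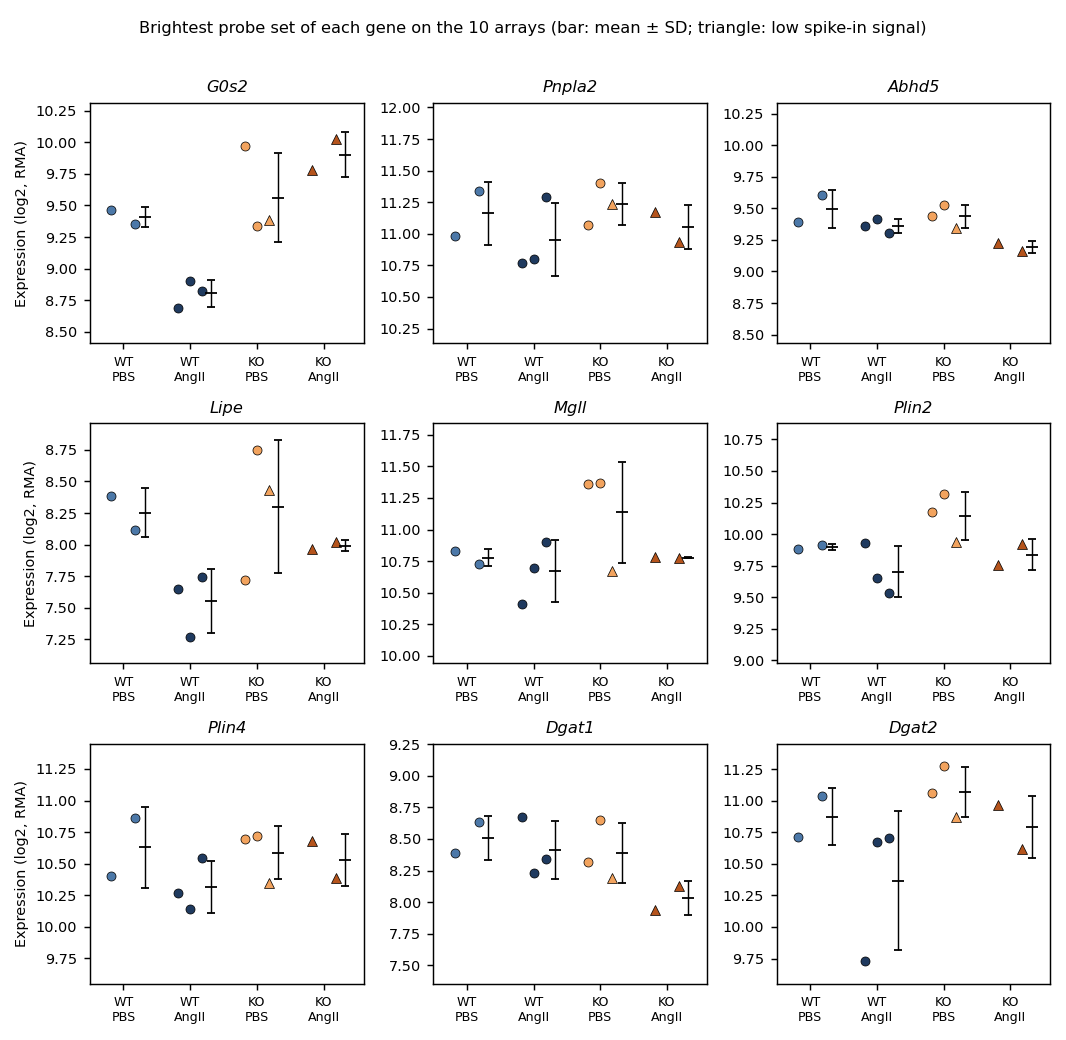
Log2 RMA expression of the brightest probe set of each of the 9 genes on the 10 arrays (points), with the mean ± SD of each group (bar) and triangles for the 3 arrays of low spike-in signal. The 3 WT AngII arrays of G0s2 lie at 8.69 to 8.90, below all others, and both KO AngII arrays at 9.78 and 10.03, above every WT array.

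In the fit, G0s2 differed between KO and WT under AngII by 1.10 ± 0.19 SE (95% interval 0.68 to 1.52), a 2.14-fold higher level in KO, with an unadjusted p of 1.08e-04 and an adjusted p = 0.376 by limma. It therefore missed the threshold of 0.05 after Benjamini-Hochberg adjustment over all probe sets. Under PBS the genotype difference was 0.15 ± 0.19 SE (adjusted p = 0.912 by limma), and −0.05 without KO PBS 2. AngII minus PBS was −0.60 ± 0.19 SE in WT (unadjusted p = 0.00887, adjusted p = 0.930 by limma) and 0.34 ± 0.19 SE in KO (adjusted p = 0.892 by limma). The difference between these responses was 0.94 ± 0.27 SE (95% interval 0.35 to 1.54, unadjusted p = 0.00484, adjusted p = 1.0 by limma). Averaged over treatment, KO exceeded WT by 0.63 ± 0.14 SE (adjusted p = 0.237 by limma).

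The spike-in signal moved with this genotype difference, since KO AngII was low and WT AngII high on every array. With that signal as a term in the model, the KO minus WT difference under AngII was 1.36 (adjusted p = 1.0 by limma) and the difference in response was 1.12. The SE of the 1.36 was 0.32, against 0.19 without the term. Within the arrays of low signal, KO AngII exceeded KO PBS 4 by 0.52. This is also the AngII difference in KO of the model with the term, so it is not a separate check. The values with the term rest on the 1 array KO PBS 4. Without WT AngII 2, the array rich in fibroblast and macrophage markers, the genotype difference under AngII was 1.04, and over 20 alternatives it ran from 0.97 to 1.36. Several of the 20 cannot move this difference: leaving out a PBS array, another variance model, the level filter and fitting only the groups compared. The range therefore rests on the other settings. Weights fitted to each array were the 1 alternative that put G0s2 past the threshold, with a difference of 1.08 (adjusted p = 0.0038 by limma). That setting also called 2911 of all probe sets and gave arrays weights from 0.225 (WT AngII 2) to 7.20 (WT AngII 4).

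**Figure D2:**
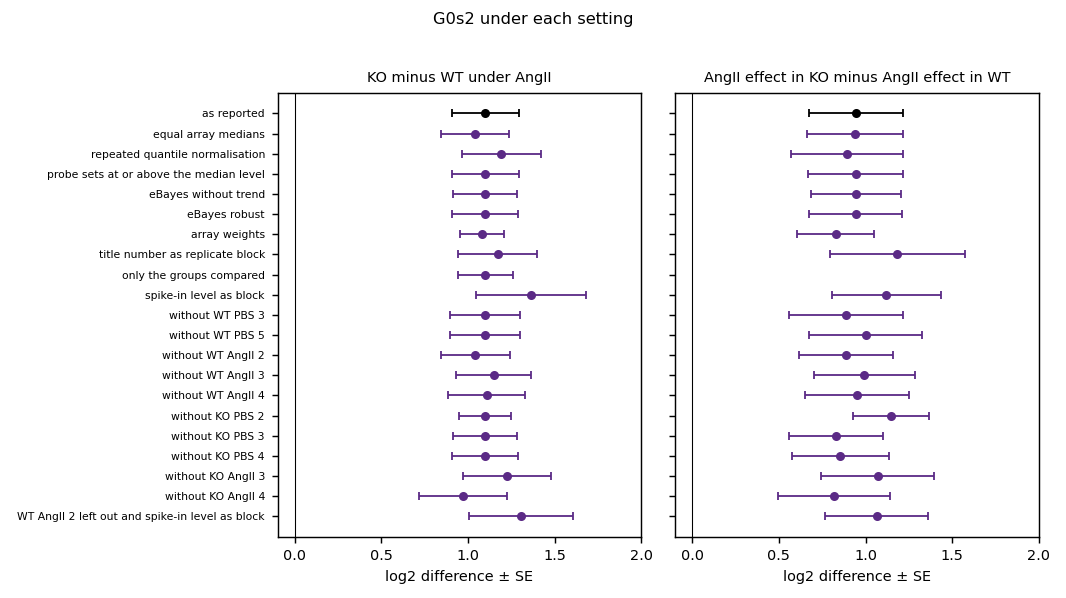
Log2 difference ± SE of G0s2 for KO minus WT under AngII (left) and for the response to AngII in KO minus that in WT (right), as reported (black) and under each alternative processing (purple). The left values run from 0.97 to 1.36 and the right values from 0.82 to 1.18, all above 0. Settings that change only the variance model or the filter cannot move either value. Leaving out a PBS array cannot move the left value.

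Of 12122 genes at or above the median level, the 5 most like G0s2 over the 10 arrays, by Pearson's r, were Fam131b (0.886), Ccl28 (0.877), Krt33b (0.866), Hs3st3b1 (0.856) and Atp5k (0.842). Without WT AngII 2 their r was 0.869, 0.830, 0.821, 0.804 and 0.791. The arrays share genotype, treatment and spike-in signal, and the 5 genes varied little: Fam131b ran from 6.31 to 6.62 and Atp5k from 13.41 to 13.69. None of the other 8 members was among them.

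Pnpla2, the lipase that G0s2 inhibits, showed no comparable separation. It read 10.99 and 11.34 in WT PBS, 10.77, 10.80 and 11.29 in WT AngII, 11.07, 11.40 and 11.23 in KO PBS, and 11.18 and 10.93 in KO AngII. All 4 groups overlapped, and their means lay between 10.95 (WT AngII) and 11.23 (KO PBS). KO minus WT was 0.07 ± 0.18 SE under PBS and 0.10 ± 0.18 SE under AngII (95% interval −0.29 to 0.49), so neither difference exceeded the spread between arrays. AngII minus PBS was −0.21 in WT and −0.18 in KO. Single arrays set the size of both: the WT value ran from −0.38 without WT PBS 3 to −0.03 without WT PBS 5, and the KO value from −0.30 without KO AngII 3 to −0.06 without KO AngII 4. The second, dim Pnpla2 probe set (mean 5.81) had −0.23 in WT but 0.16 in KO, or 0.40 in KO with the spike-in signal as a term.

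Abhd5, the coactivator of ATGL, read 9.39 and 9.60 in WT PBS, 9.36, 9.42 and 9.30 in WT AngII, 9.44, 9.53 and 9.35 in KO PBS, and 9.23 and 9.16 in KO AngII. Both KO AngII arrays were below all 8 others. The KO minus WT difference under AngII was −0.17 ± 0.14 SE (adjusted p = 0.762 by limma), and −0.03 with the spike-in signal as a term. The AngII minus PBS difference was −0.14 ± 0.14 SE in WT, running from −0.24 without WT PBS 3 to −0.03 without WT PBS 5, and −0.24 ± 0.14 SE in KO, or −0.15 with that term. The other Abhd5 probe sets did not follow it: the second gave 0.15 for KO minus WT under AngII and the dimmest (mean 4.03) gave 0.19.

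Lipe, hormone-sensitive lipase, was lowest in WT AngII. It read 8.39 and 8.11 in WT PBS, 7.65, 7.27 and 7.74 in WT AngII, 7.72, 8.75 and 8.43 in KO PBS, and 7.96 and 8.02 in KO AngII. WT AngII lay below WT PBS and below KO AngII on every array, while KO PBS spread over 1 log2 unit and overlapped all groups. AngII minus PBS was −0.70 ± 0.26 SE in WT (unadjusted p = 0.0206, adjusted p = 0.930 by limma) and −0.31 ± 0.26 SE in KO, and the difference between those responses was 0.39 ± 0.37 SE. The KO value ran from −0.60 without KO PBS 2 to −0.08 without KO PBS 3. Averaged over genotype the AngII difference was −0.50 ± 0.18 SE (adjusted p = 0.490 by limma). A second Lipe probe set near the bottom of the scale (mean 5.07) gave 0.01 in WT and 0.16 in KO.

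Mgll, monoglyceride lipase, was highest on 2 KO PBS arrays. Its brightest probe set read 10.83 and 10.73 in WT PBS, 10.41, 10.70 and 10.90 in WT AngII, 11.36, 11.37 and 10.67 in KO PBS, and 10.78 and 10.77 in KO AngII. KO PBS 2 and KO PBS 3, the only KO arrays of high spike-in signal, stood above the 8 others, while KO PBS 4 and both KO AngII arrays lay among the WT arrays. KO minus WT under PBS was 0.36 ± 0.21 SE (adjusted p = 0.814 by limma) and 0.59 with the spike-in signal as a term (unadjusted p = 0.00356, adjusted p = 0.842 by limma). Under AngII the same difference was 0.11 without that term and 0.80 with it. AngII minus PBS in KO likewise went from −0.36 to 0.11. The part of the spike-in signal in these values was not tested beyond this term.

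The 4 Mgll probe sets pointed the same way under PBS, with KO minus WT differences of 0.36, 0.27, 0.43 and 0.42 in order of brightness. The dimmest (mean 6.05) had the smallest unadjusted p among them, 0.0241 (adjusted p = 0.745 by limma). The promoter of the first RefSeq window of Mgll is shown because it holds the FoxO motif GTAAACA and the E-box CACGTG, both in capitals, and because all probe sets of the gene pointed the same way. Its 250 bases before the start site (GRCm38.p6, chr6:88724162-88724411, plus strand, 68% G or C) read 5′ to 3′:
Mgll: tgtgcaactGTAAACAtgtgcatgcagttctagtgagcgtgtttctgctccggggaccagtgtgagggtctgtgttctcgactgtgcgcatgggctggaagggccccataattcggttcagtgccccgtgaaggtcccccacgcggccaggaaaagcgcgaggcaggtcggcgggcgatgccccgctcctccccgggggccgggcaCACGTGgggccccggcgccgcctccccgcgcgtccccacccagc

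**Figure D3:**
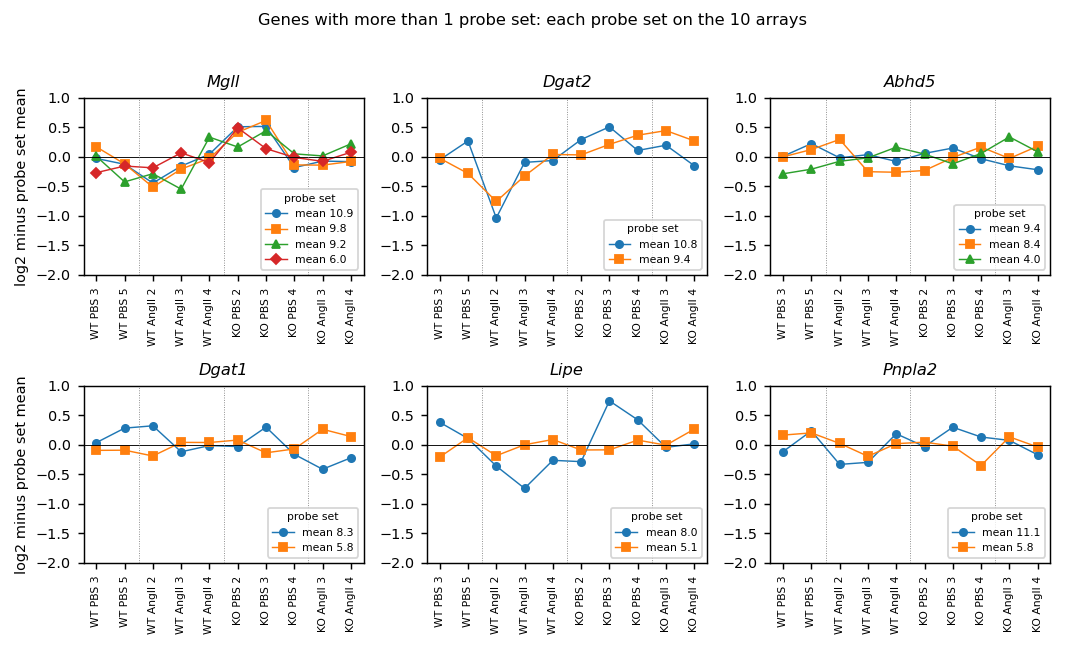
Log2 value minus the mean over 10 arrays for every probe set of the 6 genes with more than 1, by array; the legends give each probe set's mean. Of the 4 Mgll probe sets, all but that of mean 9.2, which was also high on WT AngII 4, are highest on KO PBS 2 and KO PBS 3, whereas the probe sets of Dgat1, Lipe and Abhd5 do not follow one another.

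Plin2, the perilipin found on droplets of most cells, read 9.88 and 9.91 in WT PBS, 9.93, 9.65 and 9.53 in WT AngII, 10.18, 10.32 and 9.94 in KO PBS, and 9.75 and 9.92 in KO AngII. Every KO PBS array lay above every other array, the nearest pair being 9.94 in KO PBS 4 and 9.93 in WT AngII 2. KO minus WT under PBS was 0.25 ± 0.16 SE (adjusted p = 0.832 by limma) and under AngII 0.13 ± 0.16 SE. AngII minus PBS was −0.19 ± 0.16 SE in WT and −0.31 ± 0.16 SE in KO. Averaged over genotype it was −0.25 ± 0.11 SE (unadjusted p = 0.0486, adjusted p = 0.518 by limma). With the spike-in signal as a term, Plin2 stood at −0.10 for AngII in KO, 0.44 for KO minus WT under AngII and −0.15 for AngII averaged over genotype (unadjusted p = 0.263 by limma).

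Plin4, a perilipin of muscle and fat droplets, read 10.40 and 10.86 in WT PBS, 10.26, 10.14 and 10.54 in WT AngII, 10.70, 10.72 and 10.34 in KO PBS, and 10.68 and 10.39 in KO AngII. All groups overlapped. AngII minus PBS was −0.31 ± 0.19 SE in WT and −0.05 ± 0.19 SE in KO. The WT value was −0.08 without WT PBS 5 and −0.54 without WT PBS 3, so the 2 WT PBS arrays set its size. The genotype difference under AngII was 0.21 ± 0.19 SE. With the spike-in signal as a term it was 0.58, and the AngII difference in KO was 0.19.

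Of the 2 enzymes that make triacylglycerol, Dgat1 read 8.39 and 8.63 in WT PBS, 8.67, 8.23 and 8.34 in WT AngII, 8.32, 8.65 and 8.19 in KO PBS, and 7.94 and 8.13 in KO AngII. Both KO AngII arrays were the lowest, and KO minus WT under AngII was −0.38 ± 0.19 SE (adjusted p = 0.734 by limma), or −0.08 with the spike-in signal as a term. A second, dimmer Dgat1 probe set (mean 5.78) gave 0.24 in the same comparison. AngII minus PBS was −0.10 ± 0.19 SE in WT and −0.35 ± 0.19 SE in KO, the latter −0.16 with that term.

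Dgat2, the other enzyme of that step, read 10.71 and 11.03 in WT PBS, 9.73, 10.67 and 10.70 in WT AngII, 11.06, 11.27 and 10.87 in KO PBS, and 10.96 and 10.62 in KO AngII. WT AngII 2 was the lowest array, and the next lowest was KO AngII 4. AngII minus PBS in WT was −0.51 ± 0.26 SE (adjusted p = 0.930 by limma), and −0.19 without WT AngII 2. KO minus WT under AngII was 0.42 ± 0.26 SE, 0.10 without that array and 0.71 with the spike-in signal as a term. The second Dgat2 probe set read 9.43 and 9.17 in WT PBS, 8.69, 9.12 and 9.49 in WT AngII, 9.48, 9.66 and 9.81 in KO PBS, and 9.89 and 9.72 in KO AngII. It did not overlap between the genotypes in either treatment, with KO minus WT of 0.36 ± 0.21 SE under PBS and 0.70 ± 0.21 SE under AngII (unadjusted p = 0.00626, adjusted p = 0.734 by limma). With the spike-in signal as a term the latter was 0.46 (unadjusted p = 0.221 by limma). WT AngII 2, at 8.69, was the lowest array for this probe set too. Of all probe sets, 24% did not overlap between genotypes under PBS and 27.1% under AngII.

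**Figure D4:**
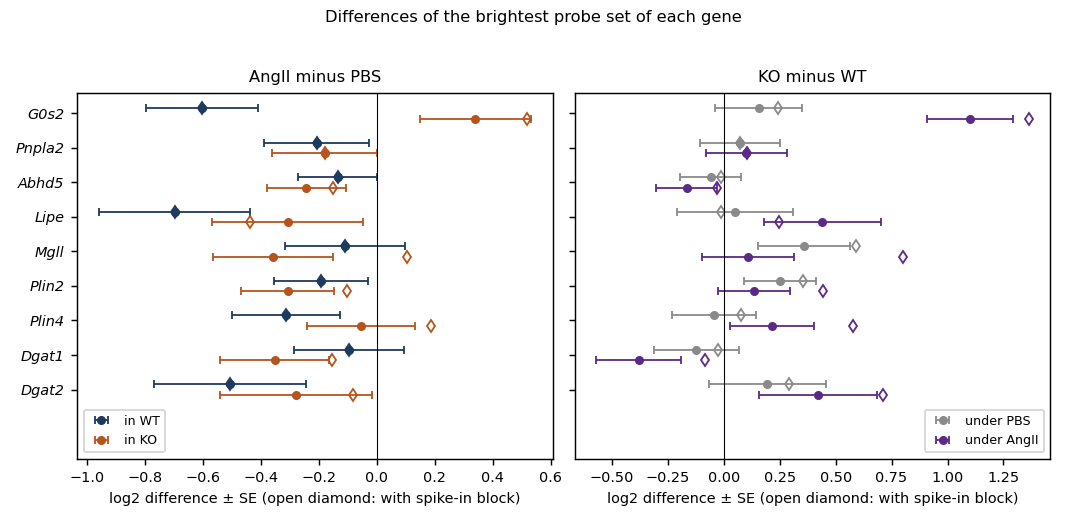
Log2 difference ± SE of the brightest probe set of each gene, for AngII minus PBS in each genotype (left) and KO minus WT in each treatment (right); open diamonds give the value with the spike-in signal as a model term. In WT all 9 values lie below 0, and under AngII the G0s2 value of 1.10 lies farthest from 0.

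Across the 18 probe sets, 0 passed the adjusted threshold in limma in any of the 7 comparisons. Over all probe sets 0% were called for AngII in WT, 0% for AngII in KO, 0.0133% for KO minus WT under PBS, 0.0111% for KO minus WT under AngII, 0% for the difference in response, 0% for AngII averaged over genotype and 0.0444% for KO minus WT averaged over treatment. At an unadjusted p under 0.05, members numbered 1 higher and 2 lower for AngII in WT, beside 5.23% of all probe sets. They numbered 0 for AngII in KO, beside 4.57%. Under PBS 2 were higher in KO, beside 6.29%, and under AngII 2 were higher in KO, beside 6.51%. For the difference in response 1 was higher (background 1.64%), for AngII averaged over genotype 1 higher and 3 lower (9.62%), and for KO minus WT averaged over treatment 3 higher (12.4%).

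Groups did not overlap for 1 member probe set higher and 4 lower after AngII in WT, beside 19.7% of all probe sets, and for 2 higher and 3 lower in KO, beside 24.5%. Between genotypes 5 higher and 1 lower in KO did not overlap under PBS, beside 24% of all, and 4 higher and 2 lower under AngII, beside 27.1%. With only 18 probe sets, of which several read the same gene, these counts lie near the background shares.

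The AngII differences of the brightest probe sets were small and mostly of 1 sign. The brightest probe sets were below 0 in 9 of 9 genes in WT (median −0.21) and in 8 of 9 in KO (median −0.28), with G0s2 in KO as the exception. With the spike-in signal as a term, 3 of 9 were above 0 in KO (G0s2, Mgll and Plin4) and the median was −0.10. Dimmer probe sets did not all share the sign in KO. Those of Pnpla2, Lipe, Dgat1 and Dgat2 and both of Abhd5 were above 0. The dimmer ones of Mgll were below 0 (−0.41, −0.10 and −0.21). In WT the dimmer probe sets were of both signs, from −0.27 for Mgll to 0.27 for Abhd5. The comparisons in the 2 genotypes use separate arrays. Averaged over genotype all 9 were below 0, from −0.50 for Lipe to −0.13 for G0s2, with a median of −0.22 (−0.14 with that term) beside −0.00 over 18193 genes. For KO minus WT, 6 of 9 were above 0 under PBS (median 0.07) and 7 of 9 under AngII (median 0.13). With the spike-in signal as a term the median under AngII was 0.44, again with 7 of 9 above 0. The median over all genes was −0.00 and 0.00 in these.

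Other genes of the pathway were read from 3 lists, of which 0 genes were called in either direction in any comparison. Of 15 further droplet coat and assembly genes 13 were measured, with a median AngII difference in WT of 0.04. At an unadjusted p under 0.05, 2 were lower, beside 5.23% of all probe sets. They were Plin5, the perilipin that tethers droplets to mitochondria in heart (−0.65 ± 0.24 SE), and Fitm2, which helps droplets bud (−0.56 ± 0.22 SE). WT AngII 2 was the lowest array for both, at 9.84 and 9.40, and without it the differences were −0.40 and −0.35. Of 25 other lipases and lipolysis regulators 22 were measured (median −0.05), with 1 lower after AngII in WT at that unadjusted p. Ces1d, a carboxylesterase that hydrolyses triacylglycerol, stood at −0.76 ± 0.26 SE after AngII in WT and 0.64 ± 0.26 SE for KO minus WT under AngII. Ces1d was lowest on WT AngII 2, at 8.02, and without that array the differences were −0.43 and 0.31. For KO minus WT under AngII, 3 of the 22 were higher and 1 lower at an unadjusted p under 0.05, beside 6.51% of all probe sets. Those higher were Pde3a, Ces1d and Faah. The lower one, Foxo1, a transcription factor that drives Pnpla2, was at −0.42 ± 0.15 SE, and −0.09 with the spike-in signal as a term.

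Of 22 genes of triacylglycerol and phosphatidate synthesis 21 were measured, with a median AngII difference in WT of −0.02. In that comparison 2 were lower at an unadjusted p under 0.05, beside 5.23% of all probe sets. Gpat3, which adds the first acyl chain to glycerol phosphate, gave −0.67 ± 0.18 SE after AngII in WT and −0.43 ± 0.18 SE in KO, the latter −0.28 without KO AngII 3 and −0.25 with the spike-in signal as a term. Between genotypes averaged over treatment, 4 were lower in KO and 1, Gpam, was higher at an unadjusted p under 0.05, beside 12.4% of all probe sets. Acsl4, an acyl-CoA synthetase that prefers polyunsaturated fatty acids, gave −0.53 ± 0.14 SE in this comparison, or −0.32 with the spike-in signal as a term. The desaturases Scd1 and Scd2 gave −0.63 ± 0.17 SE and −0.70 ± 0.21 SE, lower in KO, while their adjusted p-values by limma were 0.277 and 0.300. WT AngII 2 was the highest array for both, at 8.64 and 9.55, and without it the differences were −0.51 and −0.54.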

How the data were processed

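Log2 values, 1 per probe set and array, were deposited by the authors after RMA, per the submitters' processing notes; no RMA version or genome build was found in these sources. Of 45101 probe sets, 64 controls were left out, and genes were named through the platform annotation with symbols updated by Entrez identifier. The members and gene lists were chosen with earlier results of these data known. The limma package (version 3.58.1, R 4.3.3) fitted 4 group means to all 10 arrays, with eBayes (trend) and Benjamini-Hochberg adjustment over 45037 probe sets; a call is an adjusted p under 0.05. The fit was tested on simulated data. Named are the members, Prkcz, the 5 genes most like G0s2 (highest Pearson r) and, from each pathway list, some of the genes of smallest unadjusted p. Others of similarly small unadjusted p, such as Pde3a, Faah, Gpam and Agpat5, are not described by value. Marker lists were checked for adipocytes, cardiomyocytes (atrial ones separately), fibroblasts, endothelial cells, macrophages, smooth muscle and red blood cells. Array medians ran from 6.13 to 6.24. RMA quantile-normalises arrays, so a shift of all genes would not be seen. The number of arrays limits the precision. Alternatives were normalisation, filter, variance model, array weights, title number, spike-in signal, probe set choice and each array left out. Promoters are RefSeq's, GRCm38.p6.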

Additional observations from a re-analysis of the deposited data

Results flagged for a closer look

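G0s2 differed between genotypes in its response to AngII: the response in KO exceeded that in WT by 0.94 ± 0.27 SE on the log2 scale. All 3 WT AngII arrays lay below the WT PBS mean, by between −0.72 and −0.51, and both KO AngII arrays lay above the KO PBS mean, by between 0.21 and 0.47. The 2 KO groups overlapped, because KO PBS 2, at 9.97, lay between the 2 KO AngII arrays. The unadjusted p was 0.00484 and the adjusted p = 1.0 by limma, so the difference missed the threshold over all probe sets. Both KO AngII arrays had low spike-in signal, and the part of that signal in the difference was not tested beyond the model term given with the other G0s2 values.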

How the results depend on the processing

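The count of member probe sets called was 0 in the reported fit for all 7 comparisons, and became 1, G0s2, with array weights for KO minus WT under AngII and for KO minus WT averaged over treatment. Leaving out any array gave 0. Of 1302 alternative values for 63 gene differences, 1258 were counted as unchanged, 2 passed the threshold, 27 moved by more than 1 SE and 15 changed sign. A change of sign was counted only for the 40 differences larger than their SE. A move of more than 1 SE was counted only for the rest. Values counted as unchanged thus include further changes of sign and further moves of more than 1 SE. Mgll KO minus WT averaged over treatment, 0.23 ± 0.15 SE in the reported fit, counted as unchanged at 0.70 with the spike-in term. Values under settings that cannot move a difference, such as the variance model, also counted as unchanged. Lipe KO minus WT under PBS, 0.05 in the reported fit, kept its sign in 13 of 22 alternatives. With the mean of its probe sets Abhd5 read 0.012687 for AngII averaged over genotype, 0.024886 for AngII in KO, 0.00048756 for AngII in WT, 0.044734 for KO minus WT averaged and 0.056933 under AngII. Repeated quantile normalisation put Abhd5 KO minus WT averaged at 0.014111. With WT AngII 2 left out and the spike-in term, Dgat1 read 0.010131 for KO minus WT averaged and 0.044721 under AngII, and Mgll 0.062909 for AngII averaged over genotype. Mgll after AngII in KO was 0.10508 with the spike-in term, in arrays of low signal alone, and with WT AngII 2 left out as well. Pnpla2 after AngII in WT was 0.072604 with array weights. The cause of these was not tested.

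The title numbers were not found to pair samples: of 10 same-numbered pairs 1 had deviations correlating over 0.1 (range −0.36 to 0.10). Deviations from means of 2 or 3 arrays depend on one another, so this check cannot exclude a pairing. With the number as a replicate block 0 members were called, and G0s2 in the difference in response read 1.18, Abhd5 after AngII in WT 0.031398 and Pnpla2 0.041974. Groups of 2 or 3 arrays limit the precision of every difference. Leaving out each array and the spike-in term were also run for the 8 pathway genes described by value. This choice was made after seeing the data, and none of the differences given for these genes changed sign.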

Other observations

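The mean of 5 atrial cardiomyocyte markers was 7.48 to 7.55 in WT PBS and 7.70 to 7.89 in WT AngII, against 7.26 to 7.49 in KO PBS and 7.55 to 7.59 in KO AngII. Among them AngII minus PBS was largest for Nppa, at 0.58 in WT and 0.81 in KO. It was 0.04 and 0.01 for Myl7, 0.22 and −0.25 for Myl4, 0.29 and 0.23 for Sln, and 0.16 and 0.10 for Bmp10. Sln and Bmp10 lay below the median of all probe sets on every array. Endothelial markers (6 genes) ran from 8.61 to 9.09 over all arrays and smooth muscle markers (4 genes) from 8.46 to 10.25, with the highest on WT AngII 2. Of 4 red blood cell markers 2 were measured, with means from 6.34 on WT AngII 2 to 7.55 on KO PBS 4.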
